A study of Homo sapiens with 6 samples.

Results

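S100 proteins and annexins are 2 families of calcium-binding proteins, and 9 of their genes are described here in 3 human myeloma cell lines. They are S100A4, S100A6, S100A8, S100A10 and S100A11, and ANXA1, ANXA2, ANXA5 and ANXA6, which code for annexins A1, A2, A5 and A6. These 9 genes, of 19775 genes named on the array, were chosen from earlier results on the same arrays, in which several of them differed between the lines, and every probe set annotated to 1 of them alone was taken as a member. There were 17 such probe sets, of which 11 lay above the brightness limit used for testing. Because the differences between lines chose the genes, those differences are described without a test. The comparison of CD24+ with CD24- cells was tested.

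The lines ARP1, OCI-MY5 and OPM2 are established cultures of multiple myeloma, in which malignant plasma cells fill the bone marrow. All were grown in RPMI-1640 medium with foetal bovine serum and antibiotics, and each was divided by flow cytometry, with an antibody against the surface glycoprotein CD24, into a CD24+ and a CD24- fraction. Total RNA of each fraction was hybridised to 1 Affymetrix Human Genome U133 Plus 2.0 array, which gives 6 arrays, 3 per fraction and 2 per line. The study set the CD24+ fractions, labelled as myeloma cancer stem cells, against the CD24- fractions. No genotype or added agent is labelled for any group, and no label says that the arrays came from separate cultures, so p-values measure only the spread between these arrays.

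S100 proteins are small proteins that mostly act as dimers and carry a pair of EF-hand motifs, loops that close on a calcium ion; binding exposes a surface that grips target proteins. Annexins bind phospholipid membranes in the presence of calcium and serve in membrane repair, vesicle traffic and the linkage of membranes to actin. S100A10 is an exception among S100 proteins because its EF-hands have lost calcium binding. It pairs with annexin A2 in a heterotetramer at the plasma membrane that binds plasminogen and tissue plasminogen activator, and S100A10 protein without annexin A2 is known to be unstable. S100A8, with S100A9, forms calprotectin, an abundant protein of neutrophils and monocytes. In myeloma, annexin A2 is known mainly from the contact of plasma cells with bone marrow cells.

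The S100 genes lie together on the long arm of chromosome 1, and the annexin genes are scattered over several chromosomes. The 250 bases before the transcription start are shown for the 3 S100 genes that differed most between the lines (S100A4, S100A6 and S100A10), for S100A11, which lies next to S100A10 in gene order and differed little, and for ANXA2, the partner of S100A10. They are RefSeq sequences of build GRCh38.p14, written 5′ to 3′ on the gene's strand, and capitals mark matches to 3 motifs searched on both strands: TGANTCA, the AP-1 motif, GGGCGG, the GC box bound by Sp1, and TATAAA, the TATA box. Matches within a GC-box run overlap.
S100A4, chr1:153545807-153546056, minus strand: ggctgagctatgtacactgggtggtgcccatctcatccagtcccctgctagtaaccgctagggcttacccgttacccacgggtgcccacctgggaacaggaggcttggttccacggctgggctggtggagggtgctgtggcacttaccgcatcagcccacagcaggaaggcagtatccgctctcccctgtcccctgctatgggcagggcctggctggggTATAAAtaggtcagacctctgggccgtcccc
S100A6, chr1:153535992-153536241, minus strand: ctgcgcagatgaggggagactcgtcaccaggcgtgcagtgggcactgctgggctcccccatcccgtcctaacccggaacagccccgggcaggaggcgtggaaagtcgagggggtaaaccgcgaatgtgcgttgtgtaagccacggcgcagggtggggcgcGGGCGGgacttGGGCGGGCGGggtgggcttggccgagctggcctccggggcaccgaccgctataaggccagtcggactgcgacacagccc
S100A10, chr1:151993860-151994109, minus strand: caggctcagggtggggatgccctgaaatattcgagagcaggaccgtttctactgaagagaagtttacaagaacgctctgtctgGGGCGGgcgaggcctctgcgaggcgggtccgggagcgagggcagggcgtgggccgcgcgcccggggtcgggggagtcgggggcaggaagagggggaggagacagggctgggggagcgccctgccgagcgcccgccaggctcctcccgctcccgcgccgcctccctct
S100A11, chr1:152037005-152037254, minus strand: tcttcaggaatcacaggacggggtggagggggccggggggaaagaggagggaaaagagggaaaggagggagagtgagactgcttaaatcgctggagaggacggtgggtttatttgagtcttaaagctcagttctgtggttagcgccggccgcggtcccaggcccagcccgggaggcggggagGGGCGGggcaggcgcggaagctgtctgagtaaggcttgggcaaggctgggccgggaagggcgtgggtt
ANXA2, chr15:60397987-60398236, minus strand: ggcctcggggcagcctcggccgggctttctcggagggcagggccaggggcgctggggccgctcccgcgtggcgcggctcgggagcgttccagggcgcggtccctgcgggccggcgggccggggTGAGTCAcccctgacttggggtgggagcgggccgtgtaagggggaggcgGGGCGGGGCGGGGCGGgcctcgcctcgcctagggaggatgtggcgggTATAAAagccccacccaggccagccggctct

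No motif of the 3 is in all of the S100A4, S100A6 and S100A10 promoters. S100A4 holds a TATA box that begins 31 bases before the start, as does ANXA2, and 10.7% of 35116 promoters of this length hold that motif. S100A6 holds 3 GC boxes and S100A10 holds 1, as S100A11 does; 42.6% of all promoters hold at least 1. ANXA2 was the member of these 5 with an AP-1 motif, which 6.57% of promoters hold. S100A4 has 7 CpG dinucleotides in its 250 bases, against 24 in S100A6, 24 in S100A10, 15 in S100A11 and 28 in ANXA2, and against a median of 11 with quartiles of 3 and 23 over all promoters. A match to these letters is a description of the sequence and no site of binding.

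Levels are MAS5 intensities, a linear measure of probe set brightness that does not allow 1 gene's level to be set against another's. Differences are given as log2(intensity + 16), a scale that understates the change of dim genes. Probe sets for bacterial tryptophan genes (TrpnX), which have no target in human RNA, ranged from 2.23 to 96.4 and gave the range of values that stand for no detectable transcript. A fold difference from a line inside that range is given as a lower bound, against its highest value. The range was pooled over all arrays, and its top, 96.4, came from the CD24+ array of OPM2. On the other arrays the highest TrpnX value lay between 10.3 and 64.5. A value in the control range can therefore exceed the controls of its own array. In RNA of whole fractions, fewer cells with a transcript and less of it per cell cannot be told apart.

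S100A4, S100A6 and S100A10 shared 1 pattern: high in ARP1, intermediate in OCI-MY5 and inside the control range in OPM2. S100A4, which binds nonmuscle myosin and is known from cell motility and metastasis, read 62751 in CD24+ and 64000 in CD24- cells of ARP1, 3623 and 3452 in OCI-MY5, and 14.4 and 18.1 in OPM2 (203186_s_at). Both ARP1 arrays were high, both OCI-MY5 arrays were lower and both OPM2 arrays were at control level, with no overlap between lines. Mean log2 levels were 15.95 ± 0.02 for ARP1, 11.79 ± 0.05 for OCI-MY5 and 5.01 ± 0.12 for OPM2 (SD, n = 2 each). ARP1 was 17.9-fold above OCI-MY5 and at least 658-fold above OPM2.

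S100A6, also called calcyclin, read 25122 in CD24+ and 26518 in CD24- cells of ARP1, 4600 and 4543 in OCI-MY5, and 24.2 and 49.4 in OPM2 (217728_at). The lines did not overlap, and ARP1 exceeded OCI-MY5 by 5.65-fold and OPM2 by at least 268-fold. Its second probe set (228923_at) was dim on every array, from 3.78 to 115, and is below the limit for testing.

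S100A10, the partner of annexin A2, read 20160 in CD24+ and 18780 in CD24- cells of ARP1, 3785 and 3619 in OCI-MY5, and 14.4 and 28.6 in OPM2 (200872_at). ARP1 was again the high line and OPM2 the one without detectable signal. ARP1 exceeded OCI-MY5 by 5.26-fold and OPM2 by at least 202-fold, and OCI-MY5 exceeded OPM2 by at least 38.4-fold. The second probe set (238909_at), which is dimmer, read 475 and 357 in ARP1 and between 2.95 and 51.4 on the other 4 arrays.

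S100A11, a neighbour of S100A10 that is known from membrane repair, read 3818 in CD24+ and 4516 in CD24- cells of ARP1, 2948 and 5306 in OCI-MY5, and 6397 and 4498 in OPM2 (200660_at). All 3 lines overlapped. Its differences between lines were -0.07, 0.37 and 0.44 on the log2 scale (OCI-MY5 minus ARP1, OPM2 minus ARP1 and OPM2 minus OCI-MY5).

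S100A8 was not detected above the control range by either of its probe sets on any of the 6 arrays. The first (202917_s_at) read from 2.14 to 66.2 and the second (214370_at) from 2.34 to 49.7. That range is pooled over arrays. On the CD24- array of OCI-MY5, the probe sets read 55.5 and 49.7, above that array's highest control of 45.5. On the CD24- array of OPM2, the first read 66.2 against 61.3. S100A8 lay below the brightness limit and was the 1 member of 9 left out of the tests. Its partner gene S100A9, which is no member, lay between 5.2 and 42.8.

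**Figure D1:**
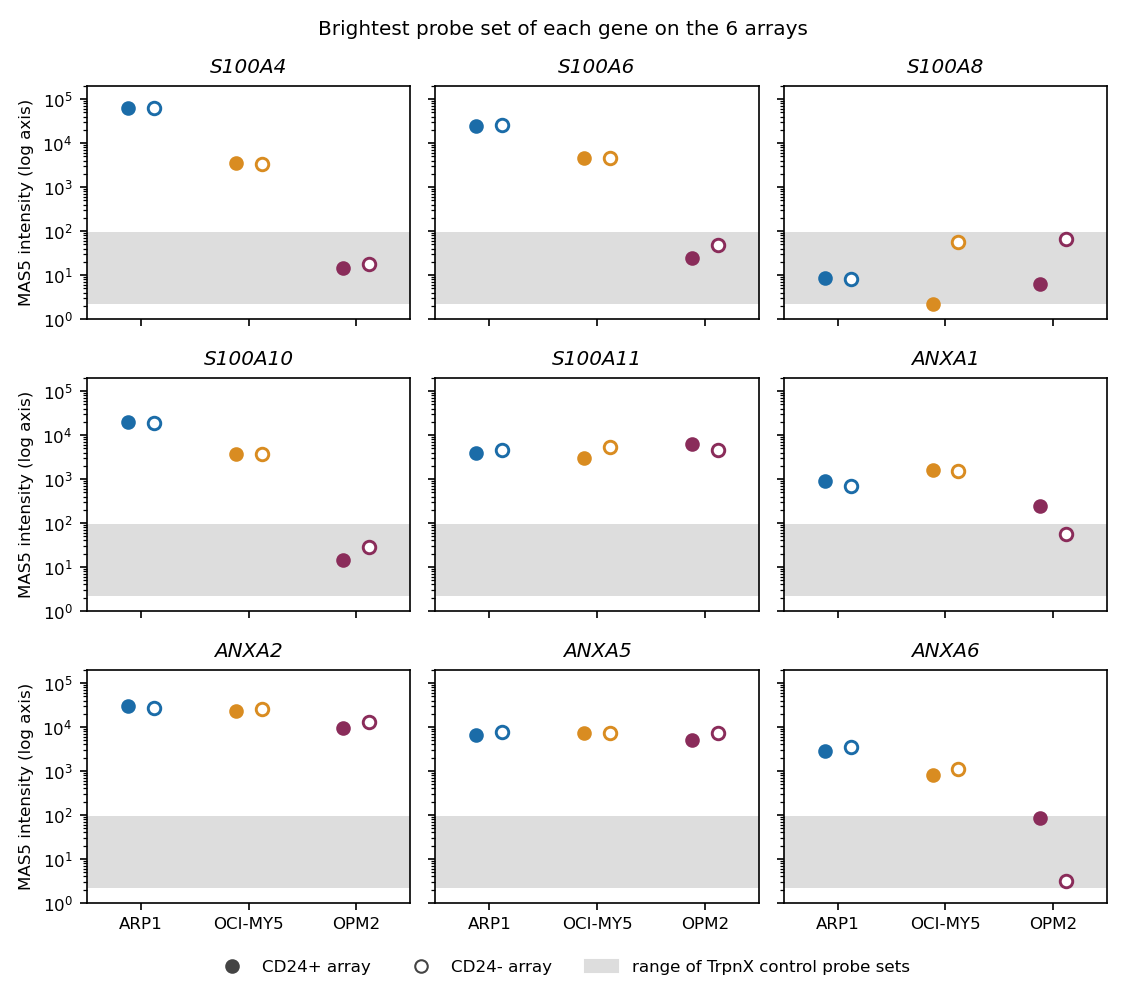
MAS5 intensity on a log axis of the brightest probe set of each member on the 6 arrays, by line, with filled and open symbols for the CD24+ and CD24- fractions; the grey band is the range of the TrpnX controls. The S100A4, S100A6 and S100A10 points descend from ARP1 through OCI-MY5 to OPM2, where they lie in the band, while the S100A11 and ANXA5 points overlap between lines.

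The annexins differed in which lines expressed them. Annexin A1, which resolves inflammation through formyl peptide receptors and inhibits phospholipase A2, was highest in OCI-MY5. ANXA1 read 914 in CD24+ and 682 in CD24- cells of ARP1, 1566 and 1537 in OCI-MY5, and 237 and 56.1 in OPM2 (201012_at). The lines did not overlap; OCI-MY5 was 1.97-fold above ARP1, and OPM2 was 6.84-fold below ARP1 and 13.4-fold below OCI-MY5. Only 1 of the 2 OPM2 arrays measured ANXA1 above the control range, so these folds are loose. Without the CD24- array of OPM2 the OPM2 minus ARP1 difference was -1.67 on the log2 scale, and without its CD24+ array it was -3.48, against -2.57 with both. The second ANXA1 probe set (233011_at) lay inside that range on every array, at 1.58 to 74.7.

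ANXA2 read 30765 in CD24+ and 26565 in CD24- cells of ARP1, 23053 and 25436 in OCI-MY5, and 9542 and 13144 in OPM2 (210427_x_at). ANXA2 was thus bright in all 3 lines, OPM2 included, and fell between lines by far smaller factors than S100A10: OPM2 was 2.55-fold below ARP1 and 2.16-fold below OCI-MY5, and OCI-MY5 was 1.18-fold below ARP1. A second bright probe set (201590_x_at) gave -0.26, -1.36 and -1.10 for the same 3 contrasts on the log2 scale, and another (213503_x_at) gave -0.16, -1.25 and -1.09 with ARP1 and OCI-MY5 overlapping. Names that end in x_at mark probes that can bind related transcripts. The pseudogene ANXA2P2, no member, had an x_at probe set with an OPM2 minus ARP1 difference of -0.55, and the probe set for ANXA2 shared with SNU13 gave -0.42. The remaining ANXA2 probe set, the 1 without that ending (1568126_at), was dim at 2.45 to 149.

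ANXA5, whose protein binds phosphatidylserine, read 6527 in CD24+ and 7525 in CD24- cells of ARP1, 7149 and 7247 in OCI-MY5, and 4970 and 7206 in OPM2 (200782_at). The lines overlapped throughout, with log2 differences of 0.04, -0.23 and -0.27.

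ANXA6, an annexin with a doubled core that organises cholesterol-rich membrane, read 2865 in CD24+ and 3442 in CD24- cells of ARP1, 816 and 1097 in OCI-MY5, and 87.1 and 3.21 in OPM2 (200982_s_at). ANXA6 thus followed the order ARP1, OCI-MY5, OPM2 without overlap, as S100A10 did. ARP1 exceeded OCI-MY5 by 3.32-fold and OPM2 by at least 32.6-fold. The second ANXA6 probe set (244250_at) was dim, and gave 0.06 for OCI-MY5 minus ARP1 and -1.20 for OPM2 minus ARP1.

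S100A4, S100A6, S100A10, ANXA2 and ANXA6, or 5 of the 8 members tested, thus stood in the order ARP1 above OCI-MY5 above OPM2 without overlap. Of all 12078 tested genes, 8.69% showed that order. Taken by pairs of lines, the arrays of 6 of the 8 did not overlap in each of the 3 contrasts, where 63.8% (OCI-MY5 and ARP1), 65.6% (OPM2 and ARP1) and 65.8% (OPM2 and OCI-MY5) of all genes did not. Since the differences between lines chose the members, nothing is read from these shares. The 8 members' median difference was -4.36 for OPM2 minus ARP1, against -0.04 over all tested genes, and -0.98 against -0.04 for OCI-MY5 minus ARP1. With genes in the OPM2 control range set to their lower bound, the first median was -3.80.

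S100A10 and ANXA2 were then set side by side. Likeness was measured as the root mean square log2 distance between 2 genes' values on the 6 arrays after each was centred on its mean, so that 0 means equal changes. S100A10 lay 0.099 from S100A6 and 0.87 from S100A4, but 3.24 from ANXA2 and 1.52 from ANXA6. ANXA2 lay 0.49 from ANXA5. In OPM2, therefore, ANXA2 was at 9542 and 13144 while S100A10 was in the control range, and in ARP1 both were bright. The 5 non-members nearest to S100A10, among 3005 genes with a range of at least 2 on the log2 scale, were KCNK1 (0.54), IGKC (0.74), LYSMD2 (0.80), PSAT1 (0.94) and SEPTIN10 (0.94). KCNK1, a potassium channel gene, read 10278 and 10241 in ARP1, 4049 and 4460 in OCI-MY5, and 19.0 and 10.6 in OPM2. Nearest to ANXA2 among the same 3005 genes were ADIPOR2 (0.13), DVL3 (0.15), AK3 (0.17), COPS6 (0.17) and TNFAIP8 (0.18). ANXA2 itself had a range of 1.69, below that limit, so genes with a range as small as its own were not searched. These distances rest on 6 arrays of 3 lines, for S100A10 with OPM2 values in the control range, and carry no test.

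**Figure D2:**
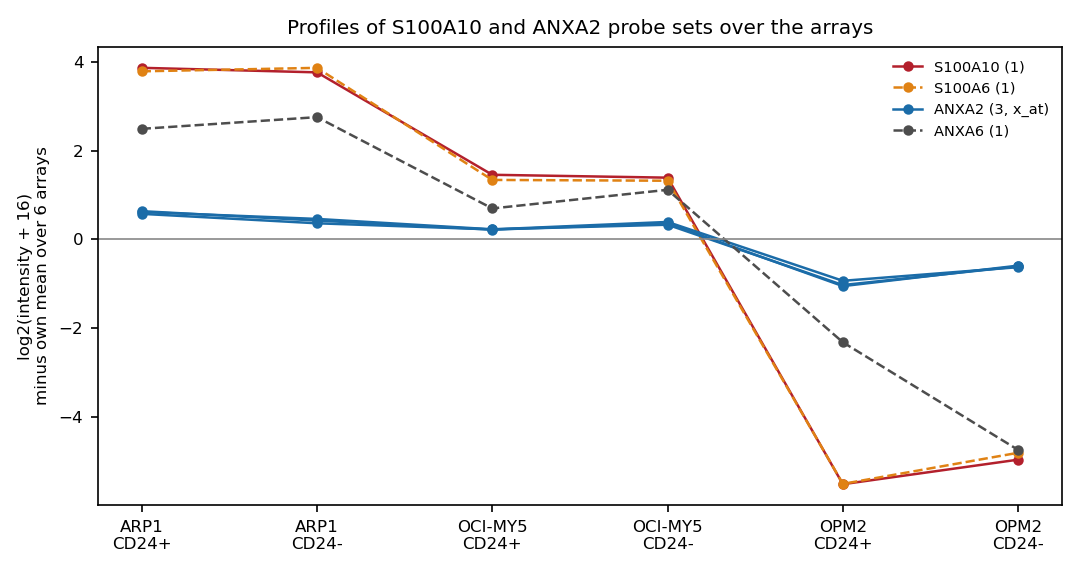
Profiles over the 6 arrays (horizontal, by line and fraction) of S100A10, S100A6, ANXA6 and the 3 bright ANXA2 probe sets, as log2(intensity + 16) minus the probe set's own mean (vertical); the number in brackets is how many probe sets a colour stands for. The S100A10 and S100A6 lines nearly coincide (distance 0.099), while the ANXA2 lines stay near 0; ARP1 is 2.55-fold above OPM2 for the brightest ANXA2 probe set and at least 202-fold above it for S100A10, whose OPM2 points lie in the control range.

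Other genes of the same pathways were tested between lines with limma, across all 12078 genes with Benjamini-Hochberg adjustment at 0.05 and the 2 fractions of a line as its arrays. The lists of these genes, like the members, were chosen with earlier results of these data known. Their calls and shares are therefore no independent support. Over all genes, 25% were called for OPM2 minus ARP1, 26.1% for OPM2 minus OCI-MY5 and 2.62% for OCI-MY5 minus ARP1. Calls in the higher direction were 40.6%, 43.5% and 32% of these; with arrays centred on their medians the first and second became 22.1% and 22.5%, and with quantile normalization the last became 43.3%. Of the 15 other S100 genes on the array only 2 were bright enough to be tested, S100A13 and S100A16. S100A13, which takes part in the export of fibroblast growth factor 1, read 2996 and 2480 in ARP1, 1333 and 1271 in OCI-MY5, and 237 and 86.1 in OPM2, the same order as S100A10. It was lower in OPM2 than in ARP1 by a log2 difference of -4.09 (SE 0.45, limma adjusted p = 0.0048), a call that held without any 1 array. The CD24- value of S100A13 in OPM2 lay in the pooled control range, so the size of its differences from OPM2 is loose. That value was above the highest control on its own array, 61.3. Against OCI-MY5 the difference was -3.03 (limma adjusted p = 0.01), and that call was lost without either OCI-MY5 array (adjusted p up to 0.0646). S100A16 was not called in any contrast. Among the dim ones, S100A2 was named after its values were seen: it read 217 and 151 in ARP1 and 34.1 or less on the other arrays.

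As a set, the genes around the S100 cluster did not share the fall of S100A4, S100A6 and S100A10 in OPM2. The tested neighbours that lie between S100 genes were dim in ARP1. Their mean log2 levels there ran from 5.03 (SPRR3) to 6.94 (LCE3D), so they had little room to fall. There were 87 neighbouring genes, 59 on the array and 36 tested, and their median difference was 0.37 for OPM2 minus ARP1 and 0.55 for OPM2 minus OCI-MY5, against -0.04 and -0.0017 over all tested genes. For OPM2 minus ARP1, 3 were called higher and 1 lower, which is 4 of 36 against 25% of all genes. TUFT1 was higher by 1.70 (limma adjusted p = 0.0045) and SPRR3, a cornified envelope gene, by 4.25 (limma adjusted p = 0.0065); SPRR3 read 657 and 557 in OPM2 and at most 39.3, inside the control range, elsewhere. Both calls held without any 1 array. TDRKH, named after its values were seen, was also higher, and THEM4 was lower by -1.11 (limma adjusted p = 0.0416), a call lost without any 1 of the ARP1 or OCI-MY5 arrays (adjusted p up to 0.185), with pseudocount 1, with no filter (adjusted p = 0.11) and with the fraction as a block (adjusted p = 0.0659). For OPM2 minus OCI-MY5, 6 were called higher and 2 lower, which is 8 of 36 against 26.1% of all genes. TUFT1 (1.88) and SPRR3 (4.41) were again higher. ZNF687 was also higher, at 2.46 (limma adjusted p = 0.0365; up to 0.104 without 1 array and up to 0.0867 with pseudocount 1 or no filter). JTB and RPS27 were not called. In gene order S100A6, S100A4, S100A16 and S100A13 follow one another closely, and S100A10 lies beside S100A11 apart from them, so genes with large and small differences between lines were intermingled.

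**Figure D3:**
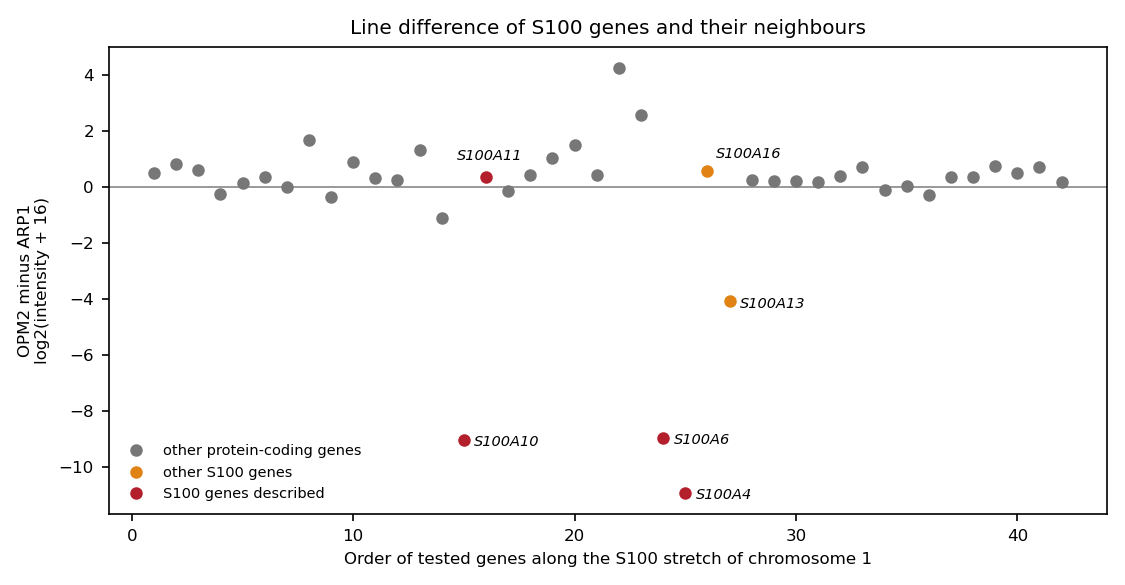
Log2 difference OPM2 minus ARP1 (vertical) of each tested protein-coding gene in and beside the S100 stretch of chromosome 1, numbered in gene order (horizontal), with the S100 genes described, other S100 genes and neighbours in separate colours. S100A4, S100A6 and S100A10 stand lowest, with OPM2 values in the control range that make their exact height uninformative, while S100A11 next to S100A10 stands at 0.37.

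Of 7 other annexins on the array, 4 were tested, and 25% of all genes were called for OPM2 minus ARP1. For OPM2 minus ARP1, 2 were called higher and 1 lower: ANXA11 by 1.71 (limma adjusted p = 0.0203), ANXA7 by 0.80 (limma adjusted p = 0.0239) and ANXA4 by -0.95 (limma adjusted p = 0.0167). ANXA11 was also higher than in OCI-MY5, by 1.22 (limma adjusted p = 0.0468). Each of these 4 calls was lost without any 1 of the ARP1 or OCI-MY5 arrays (adjusted p up to 0.182), with arrays centred on their medians (adjusted p up to 0.427) and with no filter on dim genes (adjusted p up to 0.115). Both ANXA11 calls were also lost with a probe set that is not x_at, s_at or a_at, and the one against OCI-MY5 with pseudocount 1 and with the fraction as a block (adjusted p = 0.0695); without the CD24- array of OPM2 its difference was 0.79. ANXA3 was not called.

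Of 16 partners of S100A10 and annexin A2, 8 were tested. For OPM2 minus ARP1, 2 were called higher and 3 lower, where 25% of all genes were called. The list median was -0.13. AHNAK, a giant scaffold protein that the annexin A2 and S100A10 complex holds at the membrane, was highest in OPM2, the line without detectable S100A10: it read 4354 and 3349 in ARP1, 1452 and 1327 in OCI-MY5, and 10459 and 9310 in OPM2. Its OPM2 minus OCI-MY5 difference was 2.82 (SE 0.21, limma adjusted p = 0.0017) and held without any 1 array; against ARP1 it was 1.37 (limma adjusted p = 0.012), lost without either ARP1 array (adjusted p up to 0.0805), with arrays centred (adjusted p = 0.0921) and with the mean of its probe sets (adjusted p = 0.512). PLAUR, the urokinase receptor, was lower in OPM2 than in ARP1 by -2.59 (limma adjusted p = 0.013), a call lost without either ARP1 array. Its CD24- value in OPM2 (76.7) lay in the pooled control range, though above the highest control on its own array (61.3), so the size of that difference is loose. CTSB, cathepsin B, which has been placed at the annexin A2 complex on tumour cells, was lower in OPM2 than in OCI-MY5 by -1.65 (limma adjusted p = 0.0049), with no array deciding the call. HLTF, a helicase-like transcription factor, was lower in OPM2 with differences of -1.62 and -1.69 from ARP1 and OCI-MY5 (limma adjusted p = 0.0086 and 0.007), and the calls were lost without an array of the line compared (adjusted p up to 0.071). CAV1, caveolin-1, was the second called higher and was named after its values were seen. ASIC1 and DYSF were not called.

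Of 10 receptors for secreted S100 proteins and annexin A1 on the array, 6 were tested. None was called for OPM2 minus ARP1, where 25% of all genes were called. For OPM2 minus OCI-MY5, 1 was called higher and 2 lower, where 26.1% of all genes were called. TLR4, a receptor for S100A8 and S100A9, read 548 and 622 in OCI-MY5 and at most 97.4 elsewhere, with a difference of -3.61 (limma adjusted p = 0.0274). MERTK, a receptor kinase for bridged phosphatidylserine, differed by -2.40 (limma adjusted p = 0.0313) and BSG, basigin, by 1.36 (limma adjusted p = 0.0331). The OPM2 CD24- values of TLR4 (5.26) and MERTK (39.7) lay in the control range. All 3 calls were lost in at least 4 of the 6 settings without 1 array (adjusted p up to 0.138) and with no filter on dim genes (adjusted p up to 0.0889). TLR4 was also lost with pseudocount 1 (adjusted p = 0.0648), and BSG with arrays centred (adjusted p = 0.178) and with the fraction as a block (adjusted p = 0.053). AGER, the receptor RAGE, and SCARF1 were not called.

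Intracellular partners gave calls in both directions, 2 higher and 2 lower of 13 tested for OPM2 minus ARP1, where 25% of all genes were called. CACYBP, the calcyclin-binding protein that S100A6 binds, was higher in OPM2, the line without detectable S100A6: it read 15143 and 14536 in ARP1, 22625 and 22702 in OCI-MY5, and 47889 and 38447 in OPM2, a difference of 1.53 (limma adjusted p = 0.0066). PLA2G4A, the phospholipase inhibited by annexin A1, was higher by 1.77 (limma adjusted p = 0.0063). TPM1, a tropomyosin, was lower by -2.16 (limma adjusted p = 0.0054). The calls for CACYBP and PLA2G4A were lost without either ARP1 array and the one for TPM1 without the CD24+ array of ARP1 (adjusted p up to 0.0616). CACYBP was also lost with arrays centred (adjusted p = 0.0501) and TPM1 with the mean of its probe sets (adjusted p = 0.0666). IQGAP1, named after its values were seen, was the second called lower. For OPM2 minus OCI-MY5, 2 were called higher and 2 lower, where 26.1% of all genes were called. CAPZA1 was among those lower, by -1.15 (limma adjusted p = 0.0137). That call was lost without either OCI-MY5 array, with no filter (limma adjusted p = 0.0555) and with the mean of its probe sets (limma adjusted p = 0.337). ACTB and SUGT1, an S100A6 partner, were not called. The probe sets of CACYBP, TLR4, SPRR3, IGKC, SUGT1 and ACTB end in x_at and can bind related transcripts.

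EF-hand calcium sensors outside the S100 family gave calls in 1 direction for OPM2 minus ARP1. Of 16 tested, 5 were called lower and 0 higher, with a median of -0.64, and 14.8% of all genes were called lower. LCP1, the actin bundler plastin-2, led with 5761 and 5634 in ARP1, 2407 and 2628 in OCI-MY5, and 274 and 111 in OPM2. Its differences were -4.90 and -3.72 against ARP1 and OCI-MY5 (limma adjusted p = 0.0024 and 0.0045), and both held without any 1 array. NUCB2, nucleobindin-2, was high in ARP1 alone, at 8203 and 9690 against 2339 to 3700 elsewhere; it was lower in OCI-MY5 by -1.86 (limma adjusted p = 0.0389) and in OPM2 by -1.55 (limma adjusted p = 0.0141), with the first call lost without any 1 of the ARP1 or OCI-MY5 arrays and the second without either ARP1 array (adjusted p up to 0.273). The first was also lost with pseudocount 1, arrays centred, no filter and the fraction as a block (adjusted p up to 0.137). The other 3 called lower were CHP1, at -1.48 (limma adjusted p = 0.04; up to 0.174 without 1 array and up to 0.165 with pseudocount 1, arrays centred, no filter or the mean of probe sets), and SRI and EFHD2, which were named after their values were seen. CAPN2 and CETN3 were not called. GCA, grancalcin, was the 1 gene called higher in OPM2 than in OCI-MY5, by 1.38 (limma adjusted p = 0.0307; up to 0.139 without an ARP1 or OCI-MY5 array, 0.218 with arrays centred and 0.0839 with no filter).

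Between the CD24+ and CD24- fractions no member was called, and none of 12078 genes was (0% called by limma at adjusted p below 0.05, with 149 genes, or 1.23%, at an unadjusted p below 0.05). With the line as a block 0 genes were called, and 560, or 4.64%, had an unadjusted p below 0.05. The 8 members tested had an adjusted p of 1 without the block and of 0.847 to 0.961 with it, and none had an unadjusted p below 0.05 in either fit. The median of their differences was -0.13, against 0.03 over all genes. Without the block, the spread includes the differences between lines. The SE of S100A4 was 3.57 in that fit and 0.15 with the block. The fit without the block could therefore hardly call members that differ strongly between lines.

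The fraction difference (CD24+ minus CD24-, log2, mean ± SD over 3 lines) was -0.04 ± 0.12 for S100A4, -0.25 ± 0.39 for S100A6, -0.13 ± 0.37 for S100A10 and -0.19 ± 0.68 for S100A11. The 95% interval with the line as a block ran from -0.46 to 0.37 for S100A4, from -0.83 to 0.32 for S100A6, from -0.69 to 0.43 for S100A10 and from -1.02 to 0.64 for S100A11. Within ARP1 and OCI-MY5 the S100A4, S100A6 and S100A10 values of the fractions were at most 0.10 apart on the log2 scale. In OPM2 all 3 lay in the control range, where their differences have no meaning, though the means and intervals above include them. S100A8, untested, gave 0.01, -1.98 and -1.87 within the lines, all in the control range.

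Among annexins, ANXA1 was higher in the CD24+ array of 3 of 3 lines, by 0.41 (ARP1), 0.03 (OCI-MY5) and 1.81 (OPM2), a mean of 0.75 ± 0.94 with an interval of -0.34 to 1.84. ANXA5 was lower in 3 of 3 lines, by -0.20, -0.02 and -0.53, a mean of -0.25 ± 0.26 with an interval of -0.74 to 0.23. ANXA2 gave 0.21, -0.14 and -0.46 (mean -0.13 ± 0.34, interval -0.67 to 0.41) and ANXA6 gave -0.26, -0.42 and 2.42 (mean 0.58 ± 1.60, interval -1.19 to 2.35). Without OPM2 the mean was 0.22 for ANXA1 and -0.34 for ANXA6. At least 2-fold differences between the fractions were seen for 0 of 8 members within ARP1, 0 within OCI-MY5 and 2 within OPM2, ANXA1 and ANXA6, against 5.07%, 5.72% and 18.2% of all genes. Both OPM2 values of ANXA6 and the CD24- value of ANXA1 lay in the control range. With 1 array per line and fraction, these single-line values cannot be checked against replicates. These intervals leave room for a 2-fold difference in S100A11, ANXA1 and ANXA6, and they do not show that the fractions are alike. The intervals of S100A4, S100A6 and S100A10 include OPM2 differences from the control range, so they set no limit on a fraction difference in OPM2.

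**Figure D4:**
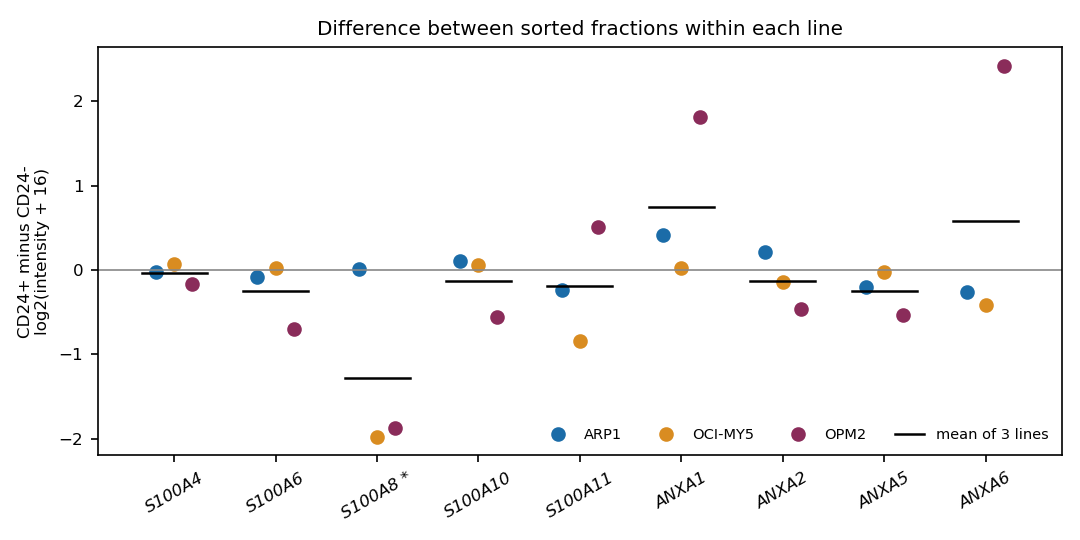
Log2 difference CD24+ minus CD24- of each member (vertical) within each line, with 1 point per line and a bar at the mean of the 3 lines; the star marks S100A8, which was not tested. The points of each tested member except ANXA1 and ANXA5 lie on both sides of 0, and the OPM2 points of ANXA6 (2.42) and ANXA1 (1.81) lie farthest up.

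The arrays themselves differed. The CD24+ array of OPM2 had a median intensity of 135, against 68.9 to 84.0 on the other 5, and a geometric mean of its spike-in controls of 37362, against 6175 to 7399; without it the differences of S100A10 between OPM2 and the other lines kept their direction. The ratio of ACTB signal from its 3' to its 5' end, a sign of RNA integrity, ran from 2.47 to 27.1 and varied with the line. It was lowest on the ARP1 arrays, at 2.63 (CD24+) and 2.47 (CD24-). With the fractions in that order, OCI-MY5 had 9.36 and 23.2, and OPM2 had 27.1 and 7.54. The same ratio for GAPDH was 1.27 on each ARP1 array and from 1.52 to 5.98 on the rest. All 8 plasma cell markers were above the brightness limit, with summed levels of 48967 to 115405. The 6 CD24 probe sets lay between 1.69 and 140, too dim to check the sort. Of 11 monocyte and neutrophil markers 3 were above the limit, 4 were in the control range on every array, and sums ran from 514 to 1581. The T and NK cell sum was 5450 and 7091 in ARP1, almost all of it GNLY, and 149 to 517 in the other lines, with CD3D, CD7 and NKG7 in the control range on every array. The erythroid sum was 2385 and 1796 in OPM2 and 85.0 to 282 elsewhere. In OPM2 almost all of it was HBB, read by an x_at probe set at 2298 and 1792. ALAS2, the other erythroid marker on the array, was in the control range on every array. The B cell sums ran from 315 to 863 and the epithelial and stromal sums from 630 to 1054. The part of these array and marker values in the differences between lines or between fractions was not tested.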

How the data were processed

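RNA of 6 sorted fractions was measured on 6 arrays. Per the labels and the submitters' processing notes, the authors deposited linear intensity values, 1 per probe set and array, normalized by MAS5 in Affymetrix Expression Console 1.1. The number of arrays limits the precision. Of 54675 probe sets, 62 controls were left out. Of the rest, 41091 had 1 gene symbol, 1801 several and 11721 none in the platform annotation, and 41037 matched RefSeq by Entrez ID; 19775 genes were named, each by its brightest probe set, and tests took the 12078 whose mean log2(intensity + 16) reached 6.36, the median probe set.

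Fractions were compared in R 4.3.3 by a two-sided limma 3.58.1 fit with eBayes and Benjamini-Hochberg adjustment at 0.05, without a block because the design text states none. The replicate number in the titles stands for the line and so pairs the samples; after subtraction of group means, r was 0.70, 0.71 and 0.77 within lines and -0.58 to 0.15 between them. Lines were compared with the same tool for genes that are no members. The code was tested on simulated data. A gene of a list was named where it was called in a contrast between lines without overlap (up to 4 per list by size of difference), or was among the 2 brightest not called; and the 5 genes nearest to S100A10 and to ANXA2 were named. Members and lists were chosen with earlier results of these data known. Promoters came from RefSeq, which matched all 9 members.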

Additional observations from a re-analysis of the deposited data

Results flagged for a closer look

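The CD24+ minus CD24- difference had opposite signs in different lines for 7 members, each line with 1 array per fraction, so the differences between lines were not tested. The widest gap between lines was 2.84 on the log2 scale for ANXA6, with OPM2 at 2.42 and OCI-MY5 at -0.42. It was 1.35 for S100A11, which was lower in the CD24+ fraction of OCI-MY5 and higher in that of OPM2. It was 0.67 for ANXA2, 0.72 for S100A6, 0.65 for S100A10 and 0.24 for S100A4, and 1.99 for S100A8. The OPM2 values of S100A4, S100A6, S100A10 and ANXA6 and all S100A8 values lay in the control range.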

How the results depend on the processing

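No gene was called between the fractions in any setting, including the fit with the line as a replicate block, where the count was 0. That block changed no call on a member. The fraction as a block in the comparison of lines ended 5 named calls: AHNAK and NUCB2 (OCI-MY5 minus ARP1), THEM4 (OPM2 minus ARP1), and ANXA11 and BSG (OPM2 minus OCI-MY5). Of 432 repeats of the members' line differences, 49 moved beyond the spread and 18 changed sign, 1 of them among S100A4, S100A6, S100A10 and ANXA6 (ANXA6, OCI-MY5 minus ARP1, to 0.06 with its probe set that is not x_at, s_at or a_at). With such probe sets ANXA2 turned to 0.53 and 1.45 for OCI-MY5 and OPM2 minus ARP1, all dim, and 3 members in place of 5 kept the order of lines. Fraction differences turned to 0.049 for ANXA2 with the mean of probe sets, and to 0.54 for ANXA2 and -0.23 for ANXA6 with those probe sets.

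Of the calls between lines, OCI-MY5 minus ARP1 had 316, which became 152 with pseudocount 1, 740 with pseudocount 64, 146 with arrays centred, 0 with no filter, 1281 with the limit at the 75th percentile, 137 with the mean of probe sets, 1375 with an intensity trend and 6 with the fraction as a block. OPM2 minus ARP1 had 3018, which became 1867 centred and 1430 with no filter, and OPM2 minus OCI-MY5 had 3150, which became 1640 with no filter. Leaving out 1 array gave 0 to 1060, 705 to 4188 and 931 to 4526, and 5 to 5 members in order. Centring moved the median of all genes from -0.04 to -0.30 for OPM2 minus ARP1, from -0.0017 to -0.40 for OPM2 minus OCI-MY5 and from 0.03 to -0.30 between fractions.

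Over all settings, calls for OPM2 minus ARP1 ran from 1 to 2 for other S100 genes (main 1), 0 to 3 for other annexins (3), 0 to 6 for partners of S100A10 and annexin A2 (5), 0 to 3 for receptors (0), 0 to 5 for intracellular partners (4), 1 to 9 for EF-hand sensors (5) and 2 to 9 for neighbours (4). For OPM2 minus OCI-MY5 they ran from 0 to 1, 0 to 2, 2 to 6, 0 to 3, 0 to 6, 1 to 7 and 2 to 11 in the same order. Of 38 calls on named genes, 9 held in all settings in which the gene was tested. The SPRR3 calls, which are among the 9, were tested in only 7 of the 10 settings that kept all arrays. Leaving out 1 line or array moved the fraction difference of S100A4 from -2.97 to 2.94, S100A6 from -2.72 to 2.43, S100A10 from -2.64 to 2.59, S100A11 from -0.54 to 0.13, ANXA1 from -0.53 to 1.68, ANXA2 from -0.48 to 0.36 and ANXA6 from -1.64 to 2.10, because leaving out 1 array sets unequal lines against each other. The causes of other changes were not tested. Values inside the control range have no order.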
